A study of Mus musculus with 4 samples.

Results

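Among the 55573 genes counted in the deposited libraries, 10 were chosen by name as genes of the glutamatergic (excitatory) neuron lineage: the vesicular glutamate transporters *Slc17a6*, *Slc17a7* and *Slc17a8*, the basic helix-loop-helix (bHLH) factors *Neurog2*, *Neurod1*, *Neurod2*, *Neurod6* and *Bhlhe22*, and the T-box factors *Tbr1* and *Eomes*. Each was found by its Ensembl identifier in GENCODE release M21. The rule uses no measured value, but members and lists were chosen with earlier results of these data known. RNA was sequenced from tdTomato-positive cells sorted by FACS at E16, counting the day of insemination as E1. All embryos, on a C57BL/6J background, carried *Hmx3*-Cre and the tdTomato reporter, so that the label and, in the *Dnmt1* KO, the deletion were limited to cells that had expressed *Hmx3* and to their progeny. The KO carried the *Dnmt1* loxP2 allele, in which exons 4 and 5 are flanked by loxP sites, and the WT carried the wild-type *Dnmt1* alleles. The labels name the tissue as basal telencephalon and the cells as immature *Hmx3*-derived interneurons, whereas the methods of the study name the preoptic area (POA). There were 2 libraries per genotype, made from cells pooled from 12 WT and 6 KO embryos. The labels call them biological replicates and the methods call them technical duplicates of pooled samples, so SDs and p-values describe the spread between libraries and not between embryos.

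Neurons of the forebrain that release glutamate and those that release GABA arise through largely separate transcriptional programmes. In the dorsal telencephalon, *Neurog2* starts the excitatory programme in progenitors, *Eomes* marks intermediate progenitors, and *Neurod1*, *Neurod2*, *Neurod6* and *Tbr1* follow as the neurons mature, while in the ventral telencephalon the *Dlx* genes direct GABAergic fates. A vesicular glutamate transporter loads glutamate into synaptic vesicles and marks a glutamatergic neuron, as *Slc32a1*, the vesicular GABA transporter, marks an inhibitory one.

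The libraries held between 8075102 and 9995968 counts, at which 3 counts correspond to 0.294 to 0.372 CPM (the standard count scaled to a common, TMM-adjusted library size); intervals cover counting error only. Mitochondrial rRNA took 8.66% of the counts of WT 1 and 1.51% to 2.32% of the others. Between the libraries of a genotype, the chi-square per degree of freedom was 39.8 in WT and 3.54 in KO, mitochondrial rRNA included. The reason for this difference was not tested. A fit without a KO library takes its spread from the WT pair alone, and a fit without a WT library from the KO pair. The targeted gene *Dnmt1* was at 385 and 447 CPM in WT and at 283 and 281 CPM in KO. Its log2 fold change was -0.56 (SE 0.14, edgeR quasi-likelihood test, Benjamini-Hochberg adjusted p = 0.0511). It passed the test without WT 1 (edgeR adjusted p = 1.82e-05) and without WT 2 (0.00365), but not without KO 1 (0.413) or KO 2 (0.53). Scaled to 10 genes of neurons in general the log2 fold change was -0.07 (edgeR adjusted p = 0.779), and scaled to 7 GABAergic markers it was -0.32 (0.346). *Dnmt1* was called lower by DESeq2 (adjusted p = 0.00843), limma-voom (0.0358) and edgeR with DESeq2's size factors (0.0467). It was also called without a filter (edgeR adjusted p = 0.00952) and with the length and GC correction (0.00064). It was not called with library sizes alone (edgeR adjusted p = 0.151), upper quartile scaling (0.0645) or at least 10 counts in every library (0.0739). Reads on exons outside the floxed segment can still be counted, and the counts are not split by exon. Of 6 genes listed for the labelled population, *Hmx3* was at 71.8 to 93.7 CPM, and *Hmx2*, *Lhx6* and *Nkx2-1* were at 34.8 CPM or more in every library. *Lhx1* had 5 to 27 counts and *Dbx1* 0 to 5 counts per library, and the inhibitory marker *Slc32a1* was at 53.0 to 74.7 CPM. Markers of other cell types differed between genotypes, while 7.33% of all tested genes were called higher and 0.570% lower. All 11 astrocyte markers passed the test in the higher direction, with a summed level of 262 to 277 CPM in WT and 3780 to 3981 CPM in KO and with *Gfap* at 0 counts in both WT libraries. So did 8 of 10 oligodendrocyte markers (151 to 167 CPM in WT, 594 to 617 CPM in KO, *Opalin* at 0 counts in both WT libraries) and 6 of 8 mural cell markers (315 to 336 CPM in WT, 661 to 714 CPM in KO). Markers of neurons in general went the other way, with 3 of 10 past the test in the lower direction and a summed level of 5770 to 6386 CPM in WT and 4267 to 4335 CPM in KO. The part of these shifts in the results below was not tested. In bulk RNA, fewer cells of a type and less RNA per cell cannot be told apart.

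The glutamatergic lineage genes were lower in the KO libraries, *Neurod6* and *Neurod2* past the threshold. *Neurod6* fell to 0.383 of its WT level and *Neurod2* to 0.591. Of the 9 members that passed the filter on low counts, these 2 were called lower and none higher at an edgeR quasi-likelihood adjusted p under 0.05, against 0.570% of the 16832 tested genes called lower and 7.33% called higher. At an unadjusted p under 0.05, 8 of 9 were lower, against 8.01% of all tested genes. In all 9 tested members, neither KO library reached the lower of the WT libraries, against 25.2% of all tested genes, and also in *Slc17a8*, which failed the filter. The count of members called lower depended on the libraries: it was 6 without WT 1 and 8 without WT 2 (7.09% and 12.7% of all tested genes), and 1, *Neurod6*, without KO 1 or without KO 2 (0.119% and 0.160%). The median log2 fold change of the tested members was -0.69, and that of all tested genes was -0.03. The summed level of the 10 genes was 536 and 493 CPM in WT and 279 and 298 CPM in KO, a KO to WT ratio of 0.56.

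**Figure D1:**
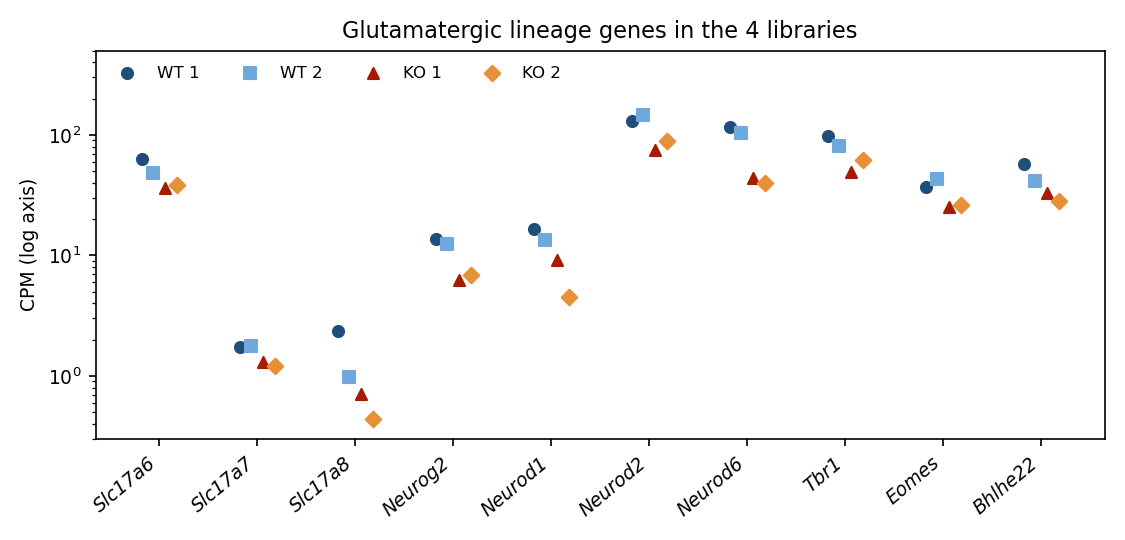
Level of each of the 10 glutamatergic lineage genes (CPM, log axis) in the 4 libraries, WT in blue and KO in red and orange, 1 point per library. For each gene both KO points lie below both WT points, with the widest spread between KO libraries for *Neurod1* (9.15 and 4.52 CPM).

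*Neurod6* (chr6:55677822-55681263, minus strand, GRCm38), a bHLH factor of postmitotic excitatory neurons, had the lowest log2 fold change of the tested members. It stood at 116 and 104 CPM in WT and at 43.8 and 40.3 CPM in KO, so that the genotypes were far apart and libraries of one genotype close together. The means were 109.7 ± 8.59 and 42.0 ± 2.43 CPM (SD, n = 2), and the log2 fold change was -1.38 (SE 0.15, edgeR quasi-likelihood test, adjusted p = 0.000882). Of all tested genes, 0.832% had a lower log2 fold change, a share that reached 11.6% for *Slc17a7*, the member with the smallest difference. *Neurod2* (chr11:98325415-98329648, minus strand), a related factor that acts in the maturation and synapse formation of excitatory neurons, stood at 132 and 147 CPM in WT and at 75.0 and 89.8 CPM in KO. The genotypes did not overlap, but the libraries of each genotype were spread by 11.0 CPM in WT and 10.4 CPM in KO (SD, n = 2). The log2 fold change of *Neurod2* was -0.76 (SE 0.16, edgeR quasi-likelihood test, adjusted p = 0.0229). The call of *Neurod2* was lost when either KO library was left out. Its log2 fold change was -0.64 without KO 1 and -0.89 without KO 2. The SEs were 0.27 and 0.30, and the spread in these fits comes from the WT libraries alone. *Neurod6* was at -1.44 and -1.32 in the same fits.

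The promoters of both called genes are shown with that of *Slc17a6*, the main transporter, because proneural bHLH factors bind E-boxes. The capitals mark the E-box letters CANNTG, searched on both strands (the letters read the same way on either) in the 250 bases before the RefSeq start of the gene (GRCm38.p6, 5′ to 3′ on the strand of the gene). The windows are chr6:55681264-55681513 on the minus strand for *Neurod6*, chr11:98329646-98329895 on the minus strand for *Neurod2*, and chr7:51621580-51621829 on the plus strand for the first *Slc17a6* entry.
Neurod6: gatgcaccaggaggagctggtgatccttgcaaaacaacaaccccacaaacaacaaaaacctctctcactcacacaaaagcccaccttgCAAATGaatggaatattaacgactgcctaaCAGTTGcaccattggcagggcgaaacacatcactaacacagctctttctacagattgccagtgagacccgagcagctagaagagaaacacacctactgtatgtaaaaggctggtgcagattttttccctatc
Neurod2: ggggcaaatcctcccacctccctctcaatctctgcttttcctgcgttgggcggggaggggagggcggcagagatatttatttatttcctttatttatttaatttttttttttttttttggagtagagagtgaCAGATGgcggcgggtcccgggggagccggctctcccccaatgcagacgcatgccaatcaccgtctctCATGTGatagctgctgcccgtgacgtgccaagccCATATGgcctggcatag
Slc17a6: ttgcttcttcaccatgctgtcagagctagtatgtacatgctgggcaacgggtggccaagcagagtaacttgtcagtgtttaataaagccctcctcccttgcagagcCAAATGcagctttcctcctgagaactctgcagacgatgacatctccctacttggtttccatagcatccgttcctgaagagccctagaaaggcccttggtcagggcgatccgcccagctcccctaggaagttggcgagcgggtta
The *Neurod6* window held 2 matches, that of *Neurod2* 3 and that of *Slc17a6* 1. Among the 11 promoter entries of 9 members, 9 held CANNTG, against 66.2% of all 32851 promoters. The narrower form CAGNTG, which is contained in CANNTG, was in 7 of 11, against 44.8%, and the T-box half-site letters GGTGTG in 2 of 11, against 16.3%. DNMT1 maintains methylation at CpG dinucleotides, of which the *Neurod6* window held 3, *Neurod2* 11 and *Slc17a6* 7. The share of all promoters with no more CpGs was 37.8% for *Neurod6* and 66.5% for *Neurod2*, so that the called genes lay on either side of the middle. Methylation was not analysed here, and a match of letters is not a bound site.

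The 2 factors that act earliest in the bHLH series did not pass the threshold on the adjusted p. *Neurog2* (chr3:127633135-127635631, plus strand) stood at 13.7 and 12.5 CPM in WT and at 6.30 and 6.94 CPM in KO, with close agreement between libraries of a genotype. Its log2 fold change was -0.98 (SE 0.27, edgeR quasi-likelihood test, adjusted p = 0.067). *Neurod1* (chr2:79452521-79456751, minus strand), which drives the onset of neuronal differentiation, stood at 16.5 and 13.5 CPM in WT and at 9.15 and 4.52 CPM in KO. The KO libraries differed by more than the WT libraries, and the log2 fold change was -1.14 (SE 0.36, edgeR quasi-likelihood test, adjusted p = 0.107). *Neurod1* is also the member whose count is least secure: 9.66% of the 50-base stretches of its transcripts occur in other genes too, and *Cerkl* on the same strand and *Gm26755* on the opposite strand cover 7.4% and 5.6% of its exons. *Bhlhe22* (chr3:18054174-18057517, plus strand), a bHLH factor of postmitotic neurons that acts in cortical area and projection development, stood at 57.0 and 41.5 CPM in WT and at 32.7 and 28.2 CPM in KO. WT 1 was the highest library, and the log2 fold change was -0.69 (SE 0.20, edgeR quasi-likelihood test, adjusted p = 0.0828). *Neurog2* and *Neurod1* passed without either WT library (edgeR adjusted p = 0.032 and 0.0263 without WT 1, 0.00828 and 0.000395 without WT 2), and *Bhlhe22* without WT 2 (edgeR adjusted p = 3.33e-06). None of the 3 passed without a KO library, and the value of *Neurod1* was -1.73 without KO 1 (edgeR adjusted p = 0.0554) and -0.70 without KO 2 (edgeR adjusted p = 0.659).

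The T-box factors were both lower in the KO libraries without passing the threshold. *Eomes* (chr9:118478212-118486132, plus strand), the marker of intermediate progenitors, stood at 37.2 and 43.0 CPM in WT and at 25.4 and 26.3 CPM in KO. The log2 fold change of *Eomes* was -0.63 (SE 0.17, edgeR quasi-likelihood test, adjusted p = 0.0655). *Tbr1* (chr2:61802930-61814114, plus strand), a factor of postmitotic deep-layer neurons, stood at 97.2 and 80.5 CPM in WT and at 49.0 and 61.8 CPM in KO. WT 2 and KO 2 were the closest libraries of different genotype, and the log2 fold change of *Tbr1* was -0.68 (SE 0.18, edgeR quasi-likelihood test, adjusted p = 0.0564). *Tbr1* was called lower by DESeq2 (adjusted p = 0.0179), and both T-box genes were called when either WT library was left out (*Eomes*, edgeR adjusted p = 0.00182 and 0.0338, and *Tbr1*, 0.0108 and 5.66e-07) but not without either KO library.

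Among the transporters, nearly all counts fell on *Slc17a6* (chr7:51622006-51671119, plus strand), which encodes VGLUT2, the form that prevails in subcortical neurons. It stood at 62.9 and 48.5 CPM in WT and at 36.0 and 38.1 CPM in KO, so that the WT libraries were further apart than the KO libraries. The log2 fold change was -0.59 (SE 0.18, edgeR quasi-likelihood test, adjusted p = 0.0951), and it passed without WT 2 (edgeR adjusted p = 4.75e-05) but not without any other library. *Slc17a7* (chr7:45163949-45176142, plus strand), which encodes VGLUT1 of mature cortical neurons, had counts of 14 and 18 in the WT and 11 in each KO library. At this depth a difference was not detectable (log2 fold change -0.47, SE 0.55, edgeR quasi-likelihood adjusted p = 0.651). *Slc17a8* (chr10:89574020-89621253, minus strand), which encodes VGLUT3, had counts of 19 and 10 in the WT libraries and of 6 and 4 in the KO libraries, and was tested only in the fit without a filter (log2 -1.49, edgeR adjusted p = 0.398). The share of *Slc17a6* in the counts of the 3 transporters was 93.9% in WT 1 (95% Wilson interval 91.5% to 95.6%) and 94.6% in WT 2 (92.4% to 96.3%). In KO it was 94.7% (91.7% to 96.7%) and 95.8% (93.3% to 97.5%), so that the intervals of all 4 libraries overlapped.

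The levels of the 10 genes were ranked per length, in TPM, in which counts are divided by exon length and each library is scaled to the same sum. *Neurod6* ranked first in WT (151.7 ± 9.84 TPM, SD, n = 2), and *Neurod2* ranked second (133.5 ± 29.4 TPM) with overlapping libraries. In KO, *Neurod2* (86.6 ± 12.1 TPM) lay above *Neurod6* (64.5 ± 2.86 TPM) in both libraries. The other members kept their order in both genotypes except the 2 rarest. *Tbr1* had 48.0 ± 0.498 TPM in WT and 33.4 ± 5.90 TPM in KO, and *Bhlhe22* followed at 43.3 ± 3.47 and 30.0 ± 2.73 TPM, overlapping with *Tbr1* in KO. *Slc17a6* (30.5 ± 1.25 TPM in WT, 22.7 ± 1.21 in KO) and *Eomes* (29.1 ± 7.06 in WT, 20.6 ± 0.774 in KO) overlapped in WT. *Neurog2* and *Neurod1* came next at 17.5 ± 1.46 and 16.3 ± 0.034 TPM in WT, and at 9.82 ± 0.80 and 8.24 ± 3.86 TPM in KO, where they overlapped. *Slc17a7* and *Slc17a8* stayed at or below 1.34 TPM in every library.

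A ratio of counts within a library does not depend on the scaling between libraries, and without a correction for length it compares libraries and not genes. The ratio of *Slc17a6* to *Slc32a1*, the transporters of the excitatory and the inhibitory transmitter, was 0.897 and 0.650 in WT and 0.679 and 0.640 in KO, so that the genotypes overlapped. With 2 libraries per genotype the smallest two-sided p of an exact permutation test is 0.333, and no test was made. *Neurod6* over *Slc32a1* was 1.65 and 1.39 in WT and 0.825 and 0.677 in KO. Relative to *Slc32a1*, 6 of 10 members lay lower in both KO libraries and 4 overlapped, namely the 3 glutamate transporters and *Bhlhe22*. Of all tested genes, 3.40% lay lower in both KO libraries on this ratio. Relative to the sum of 7 GABAergic markers (*Gad1*, *Gad2*, *Slc32a1*, *Dlx1*, *Dlx2*, *Dlx5* and *Dlx6*), 10 of 10 lay lower in both KO libraries, against 7.14% of all tested genes, and the summed ratio was 0.387 and 0.398 in WT and 0.263 and 0.259 in KO. Relative to the sum of 10 genes of neurons in general, 4 of 10 lay lower (*Slc17a8*, *Neurog2*, *Neurod1* and *Neurod6*) and 6 overlapped, against 2.18% of all tested genes that lay lower. *Slc17a8* is counted here although it failed the filter that the tested genes passed. The summed ratio of the 10 members to the neuron genes was 0.0840 and 0.0855 in WT and 0.0645 and 0.0697 in KO, whereas that of the GABAergic markers was 0.217 and 0.215 in WT and 0.245 and 0.269 in KO.

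**Figure D2:**
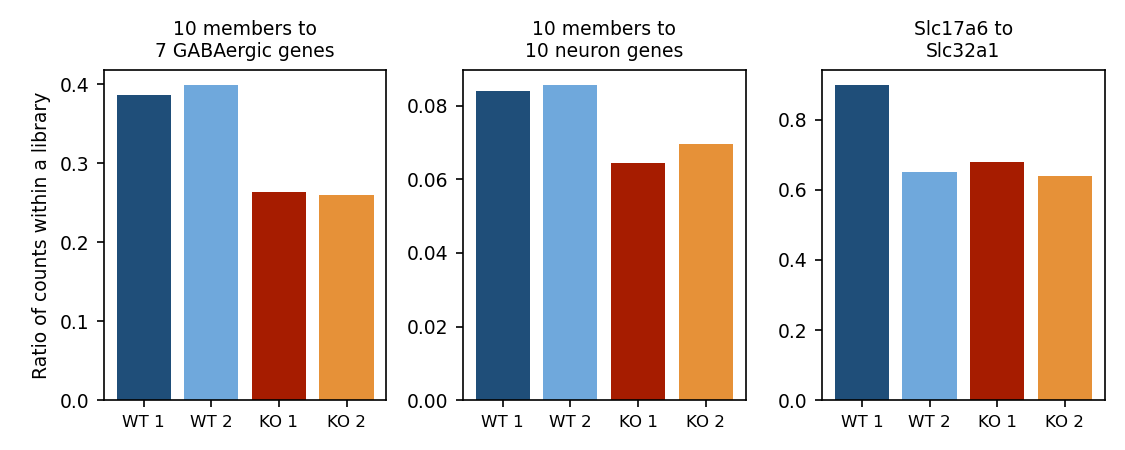
Ratio of counts within each library (1 bar per library, axes from 0) of the 10 glutamatergic lineage genes to the 7 GABAergic markers, of the same 10 to the 10 neuron genes, and of *Slc17a6* to *Slc32a1*. The ratio of *Slc17a6* to *Slc32a1* overlaps between genotypes (0.897 and 0.650 in WT, 0.679 and 0.640 in KO), and the other ratios do not.

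Because the neuron genes as a whole were lower in KO, the test was repeated with the libraries scaled to the summed counts of the 10 neuron genes or of the 7 GABAergic markers. These sums, also used in the ratios above, are led by the genes with the most counts. *Tubb3* had 9872 to 19147 counts a library and *Map2* 13750 to 19387, and in the GABAergic sum *Dlx1* had 4680 to 6497. The median log2 fold change of all tested genes was 0.47 under the first scaling and 0.22 under the second. Scaled to the neuron genes, *Neurod6* remained lower (log2 -0.89, edgeR adjusted p = 0.00296), as the only member called, against 0.214% of all tested genes. The other tested members lay between -0.64 for *Neurod1* and 0.02 for *Slc17a7*, the only one above 0 and still below the median of all genes, and *Neurod2* was at -0.27 (edgeR adjusted p = 0.296). Scaled to the GABAergic markers, *Neurod6* was again the only member called (log2 -1.13, edgeR adjusted p = 0.000183), against 0.452% of all tested genes, and *Neurod2* was at -0.52 (edgeR adjusted p = 0.0938). All 9 tested members were below 0 under this scaling.

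**Figure D3:**
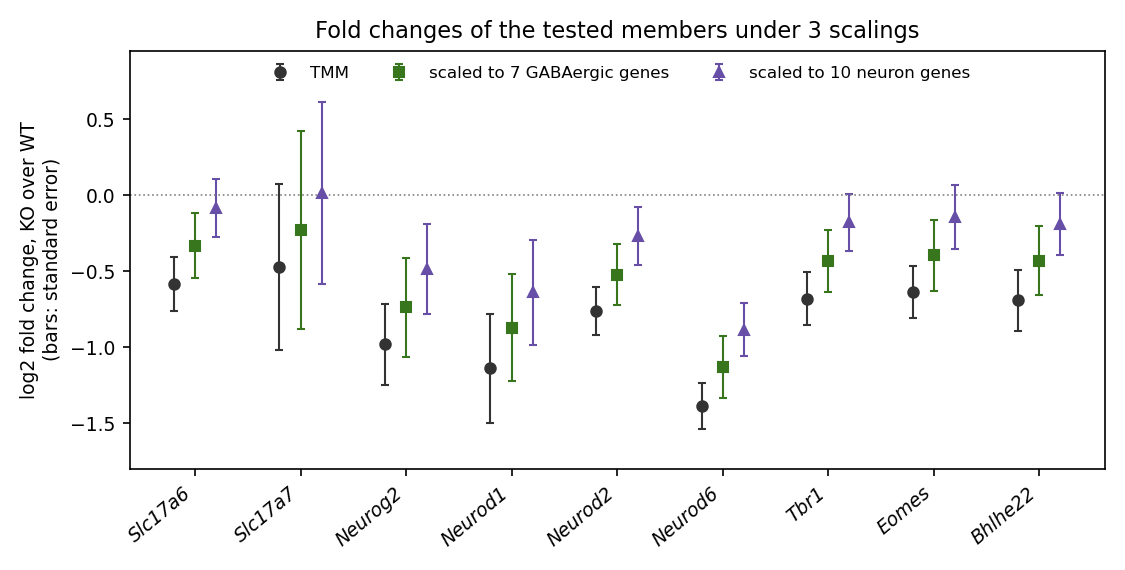
Log2 fold change of each tested glutamatergic lineage gene (KO over WT) with TMM scaling and with the libraries scaled to the 7 GABAergic markers or the 10 neuron genes, with bars for the standard error. *Neurod6* stays below -0.8 under all 3 scalings, whereas *Slc17a7* reaches 0.02 under the neuron genes.

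Of 19 further proneural and cortical excitatory genes, 17 were tested, 2 were called lower and 1 higher (against 0.570% and 7.33% of all tested genes), and the median log2 fold change was -0.20. The counts lower and higher were 7 and 3 without WT 1, 4 and 2 without WT 2, 1 and 0 without KO 1, and 1 and 1 without KO 2, while the share of all tested genes called lower ran from 0.119% to 12.7% over these fits. *Insm1*, a factor of newborn neurons and intermediate progenitors, fell with a log2 fold change of -0.69 (62.6 ± 4.15 CPM in WT, 38.8 ± 4.45 in KO, SD, n = 2, edgeR adjusted p = 0.0382). *Emx2*, a patterning factor of dorsal progenitors, rose from 1.83 ± 0.227 to 8.48 ± 0.62 CPM (SD, n = 2, log2 2.21, edgeR adjusted p = 0.00746). *Reln*, secreted by Cajal-Retzius cells and the uncalled gene of the list with the highest mean CPM, which is not corrected for length, was at 296 ± 23.2 CPM in WT and 236 ± 7.35 in KO (SD, n = 2, edgeR adjusted p = 0.213), and was called lower without WT 1 (edgeR adjusted p = 0.0122). The call of *Emx2* was lost without KO 1 (edgeR adjusted p = 0.0783) and that of *Insm1* without KO 1 or KO 2 (edgeR adjusted p = 0.423 and 0.173). *Insm1* also missed the threshold with library sizes alone (edgeR adjusted p = 0.0814), with at least 10 counts in every library (0.0508), and scaled to the neuron genes (0.455) or the GABAergic markers (0.194).

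Of 18 factors of hypothalamic and other diencephalic glutamatergic neurons, 12 were tested. Of these, 3 were called lower and 1 higher, against 0.570% and 7.33% of all tested genes, and the median log2 fold change was -0.25. *Foxb1* had 0 counts in all 4 libraries. *Nr5a1*, the factor that defines neurons of the ventromedial hypothalamus, had counts of 48 and 44 in the WT libraries and 1 in each KO library, a KO to WT ratio of 0.0227 with an exact 95% counting interval from 0.00271 to 0.0844 (edgeR quasi-likelihood test, adjusted p = 0.00204). *Fezf1*, another factor of that nucleus, fell from 11.2 ± 0.316 to 2.35 ± 0.208 CPM (SD, n = 2, log2 -2.25, edgeR adjusted p = 0.00369). *Sim1*, which is needed for the paraventricular nucleus, fell from 5.86 ± 0.0315 to 1.32 ± 0.314 CPM (SD, n = 2, log2 -2.14, edgeR adjusted p = 0.0204). *Tcf7l2*, a factor of thalamic neurons and also of differentiating oligodendrocytes, rose from 8.91 ± 1.10 to 21.7 ± 1.42 CPM (SD, n = 2, log2 1.29, edgeR adjusted p = 0.0121). The calls of *Sim1* and *Tcf7l2* were lost without KO 1 (edgeR adjusted p = 0.0944 and 0.0719) and without KO 2 (0.156 and 0.0877), and those of *Nr5a1* and *Fezf1* were not lost without any one library.

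Of 12 genes of glutamate synthesis, uptake and supply, 3 were called higher and none lower by edgeR at an adjusted p under 0.05. Over all tested genes, 7.33% were called higher and 0.570% lower. The median log2 fold change of the list was -0.08. With DESeq2, 1 gene of the list was called lower, against 1.47% of all tested genes. Leaving out a WT library also brought lower calls, in this list and over all tested genes. At an unadjusted edgeR p under 0.05, 7 of the 12 genes differed in either direction, against 3813 of the 16832 tested genes. The 3 genes called higher are those through which astrocytes take up and convert glutamate. Of them, 2, *Slc1a2* and *Slc1a3*, are also on the astrocyte list above. *Slc1a2* rose from 101 ± 16.8 to 1948 ± 110 CPM, *Glul*, the glutamine synthetase, from 101 ± 0.347 to 724 ± 19.5 CPM, and *Slc1a3* from 73.4 ± 4.43 to 569 ± 33.3 CPM (SD, n = 2, edgeR adjusted p = 6.33e-06, 1.18e-05 and 1.21e-05). *Slc38a2*, a neuronal glutamine carrier, was at 337 ± 51.4 CPM in WT and 267 ± 12.5 CPM in KO (SD, n = 2, edgeR adjusted p = 0.243), and was called lower without WT 2 (edgeR adjusted p = 0.00165). 

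In the GABAergic lineage list, 1 of 10 genes was called, in the higher direction, against 7.33% of all tested genes. The median log2 fold change was -0.21. This call was lost without KO 1 and without KO 2. Lower calls appeared in this list without WT 2, as they did over all tested genes. *Dlx1*, a factor of GABAergic progenitors and interneurons, was at 670 ± 46.9 CPM in WT and 580 ± 33.2 in KO (SD, n = 2, edgeR adjusted p = 0.423). *Gad2* (log2 -0.32, edgeR adjusted p = 0.322) and *Gad1* (log2 -0.29, edgeR adjusted p = 0.245), the enzymes that make GABA, did not pass either, though *Gad2* did without WT 2 (edgeR adjusted p = 0.000891). Scaled to the 10 neuron genes, *Dlx1*, *Gad2* and *Gad1* had log2 values of 0.29, 0.19 and 0.20, below the median of 0.47 over all tested genes. Of the 10 general neuron genes, *Elavl4* (log2 -0.81), *Syt1* (-0.73) and *Stmn2* (-0.57) were called lower, against 0.570% of all tested genes. The median was -0.65. With 1 library left out, this median was -0.59 without WT 1, -0.65 without WT 2, -0.53 without KO 1 and -0.64 without KO 2. None of these 3 calls held without KO 1 or without KO 2. Nor did they hold with the libraries scaled to the neuron genes or the GABAergic markers (edgeR adjusted p from 0.0615 to 0.747). The 3 genes are part of the neuron sum, so scaling to it draws their values toward 0 by construction and cannot test their calls. *Stmn2* also missed the threshold with library sizes alone (edgeR adjusted p = 0.124), upper quartile scaling (0.0519), at least 10 counts in every library (0.0625) and the length and GC correction (0.0925). None of 8 markers of dividing progenitors was called by edgeR at an adjusted p under 0.05, and their median log2 fold change was 0.09. At an unadjusted edgeR p under 0.05, 3 differed in either direction, against 3813 of the 16832 tested genes. Leaving out a WT library brought calls in this list, and more calls over all tested genes as well.

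**Figure D4:**
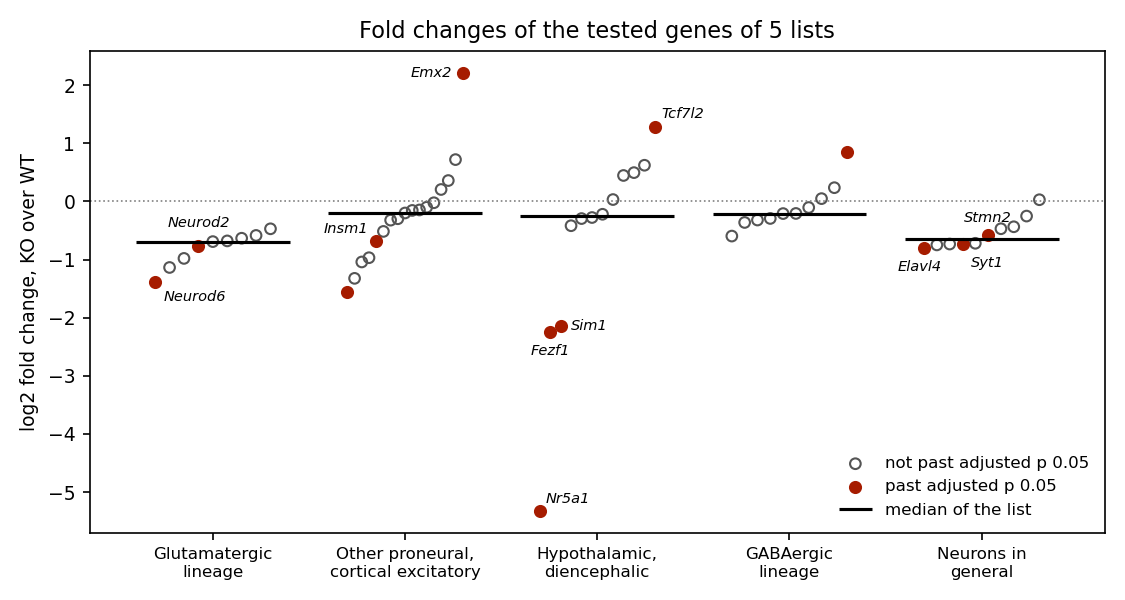
Log2 fold change (KO over WT) of the tested genes of 5 lists, 1 point per gene, filled where the edgeR adjusted p was under 0.05, with a line at the median of each list and names on the called genes that the text describes. The medians of the glutamatergic lineage genes (-0.69) and of the general neuron genes (-0.65) lie below those of the other 3 lists (-0.20 to -0.25).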

How the data were processed

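RNA-seq libraries of sorted tdTomato-positive cells from *Dnmt1* WT and KO embryos at E16 were compared, 2 per genotype, grouped by their labels. The files the authors deposited hold raw counts of reads for each Ensembl gene, and per the submitters' processing notes the tools were CASAVA 1.8.2, STAR 2.5.2a and featureCounts 1.5.0-p1, with the builds mm10 and GRCm38. The annotation release and the strand setting are not given in the sources used here. Without strand, reads of overlapping antisense genes cannot be told apart. Of 55573 identifiers, 55480 matched GENCODE M21. edgeR's expression filter left 16832 genes, and TMM normalization was followed by the quasi-likelihood test of edgeR 4.0.16 (R 4.3.3, limma 3.58.1) on genotype alone. P-values were adjusted over all tested genes by the Benjamini-Hochberg method and called under 0.05. SEs were derived from the test statistic, and TPM from exon lengths. All 10 members were named, and from each other list at most 4 genes: the called by smallest adjusted p, then the highest mean CPM; the 3 called neuron genes, the genes listed for the labelled population, *Foxb1*, *Gfap*, *Opalin* and *Slc32a1* lie outside this rule and were named after their values were seen. Members and lists were chosen with earlier results of these data known. Alternatives included DESeq2 1.42.0, limma-voom, other scalings and filters, the replicate block, length and GC correction, and each library left out. The procedures were tested on simulated data. Promoter sequences came from RefSeq. MeDIP data were not analysed here, and some genes of the lists are counted but not reported here by name.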

Additional observations from a re-analysis of the deposited data

How the results depend on the processing

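*Neurod6* was called lower in all 16 alternatives (log2 -1.46 to -0.89), *Neurod2* in 12 (-0.89 to -0.27). No member was called higher in any of them, and *Slc17a7* was above 0 once, scaled to the neuron genes (0.017, edgeR adjusted p = 0.986). Under that scaling *Reln* (0.168), *Slc38a2* (0.168), *Dlx1* (0.291), *Gad2* (0.185) and *Gad1* (0.203) also lay above 0, as did *Dlx1* (0.041) scaled to the GABAergic markers. These scalings move all genes alike: the median of all tested genes was 0.468 and 0.219, above each of these values, and *Slc17a7* lay at -0.451 and -0.448 relative to it, against -0.446 with TMM. The count of members called lower, 2 of 9, was 8 of 10 without a filter on low counts (1.91% of 30006 genes called lower), 8 of 9 with the length and GC correction (5.80% of all tested genes), 8 of 9 with that correction and the replicate block together (8.66%), 7 at an adjusted p under 0.1, and 1 with either scaling to neuron genes or GABAergic markers, which were chosen after seeing the data. Leaving out 1 library, where the lone library of a genotype is assumed to vary like the others, gave 1 (without either KO library) to 8 (without WT 2). Over all tested genes, 96 lower calls became 247 (DESeq2), 573 (no filter), 52 (at least 10 counts in every library), 977 (length and GC), 1457 (that with the block), 36 (neuron genes), 318 (adjusted p under 0.1) and 20 to 2144 (1 library left out). The 1233 higher calls became 1859, 2173, 4283 and 2253 (length and GC, that with the block, neuron genes, GABAergic markers) and 706 to 2514 (1 library left out). In the 4 other lists of 59 genes, 5 lower calls became 8, 9, 3, 14, 16 and 8 (DESeq2, no filter, at least 10 counts, length and GC, that with the block, adjusted p under 0.1) and 3 to 12 (1 library left out), and 6 higher calls became 10 (neuron genes) and 3 to 8 (1 library left out). The cause of these shifts was not tested.

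Same-numbered libraries deviated together (correlation 0.159 over 16832 genes, not independent of each other), and no label says that they share a litter, batch or day. The 8 members called without a filter, with the length and GC correction or with the replicate block were the same: all but *Slc17a7* and *Slc17a8*. With the replicate block, *Dnmt1* (edgeR adjusted p = 0.0149), 8 of 9 members, 619 of all tested genes (3.68%) and 9 genes of the 4 lists were called lower. The share of all calls that were higher, 92.8%, was then 72.4%, and it was 75.8% without a filter, 65.6% with the length and GC correction, 59.9% with both, and 50.1% to 97.2% with 1 library left out. Depth limits *Slc17a7* and *Slc17a8*, with 4 to 19 counts a library.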
